A study of Mus musculus with 17 samples.

Results

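Type I interferon-stimulated genes were followed in the colon of wild-type (WT) and Pxr-/- mice as a set of 36 named genes of the antiviral response, out of 23614 gene or transcript names with a probe in the deposited table of log2 values. The 36 genes were chosen by name as genes known to respond to interferon alpha and beta, with earlier results of these data known. Shares of all genes given beside theirs therefore describe the set and are no test of it. Each gene was represented by its probe with the highest mean value in that table. All 36 genes were found, on 63 probes. Type I interferons bind a receptor of IFNAR1 and IFNAR2, whose kinases JAK1 and TYK2 phosphorylate STAT2. STAT2 and IRF9 are subunits of the ISGF3 complex, which binds the interferon-stimulated response element (ISRE) in the promoters of antiviral genes. In the gut, a low interferon tone is kept up by the microbiota and by viruses of the mucosa, and interferon lambda acts on epithelial cells through the same ISGF3 complex.

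Colon RNA of male C57Bl6/J mice was hybridised to 17 one-colour Agilent arrays, in a study of pregnane X receptor (PXR), the nuclear receptor for xenobiotics that the gene Nr1i2 encodes. WT and Pxr-/- mice received intraperitoneal injections daily for 4 days, either of corn oil alone (CONT) or of pregnenolone 16α-carbonitrile (PCN, a ligand of rodent PXR) at 100 mg/kg in corn oil, and were killed 6 h after the last injection. There were 4 WT CONT, 4 WT PCN, 5 Pxr-/- CONT and 4 Pxr-/- PCN arrays. WT mice were bought from a supplier at 6 weeks of age and Pxr-/- mice had been bred in the laboratory for 10 years, with 2 weeks of acclimatization before treatment, so genotype and colony of origin cannot be told apart in any comparison of genotypes. The age of the Pxr-/- mice is not given in the sources used here. The p-values measure the spread between arrays of 1 mouse colony per genotype. In bulk colon, fewer cells of a type and less RNA per cell cannot be told apart.

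The arrays labelled WT PCN replicate 3 and Pxr-/- CONT replicate 2 were nearly identical, with an SD of 0.20 for the log2 differences over 38646 probes, and so were those labelled WT PCN replicate 4 and Pxr-/- PCN replicate 2, with an SD of 0.17. The other pairs of arrays had SDs of 0.30 to 0.62. Over the 36 genes the largest difference within these pairs was 0.26 and 0.19, against at least 0.59 within any other pair. Each pair joins different groups, so at most 1 of its labels can describe the RNA if the arrays hold the same RNA, and each result is given with and without these 4 arrays. Nr1i2, the targeted gene, had a log2 signal of 11.10 and 11.15 in the arrays labelled WT PCN replicates 3 and 4, of 11.85 to 12.44 in the other 6 WT arrays and of 10.39 to 11.93 in the 9 Pxr-/- arrays. The Nr1i2 values of those 2 arrays thus lay below all other WT arrays and within the Pxr-/- range, and whether the probe lies in the deleted part is not known here. The mean of 5 neutrophil markers was 9.37 to 10.67 in the 9 CONT arrays and 11.15 to 12.36 in the PCN arrays other than WT PCN replicate 3. It was 9.75 in WT PCN replicate 3, within the CONT range, and 11.50 in WT PCN replicate 4, within the PCN range. Colonocyte markers were high in all groups (mean log2 signal 15.14 to 15.62 over 8 genes), while pancreas and liver markers were far higher in single arrays than in the rest.

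Promoters of genes called in the averaged genotype comparison, described further on, are shown first because the ISRE is the element that ISGF3 binds. The ISRE core was searched as GAAA, any 2 bases and GAAA again, or as TTTC spaced the same way for the other strand, from 250 bases before to 50 bases after the annotated start (RefSeq, GRCm38.p6). Of the 36 genes, 27 had an entry, and 14 of these (51.9%) held at least 1 match, against 3.99% of the 27025 gene symbols in the table. In 11 genes a match lay before the start and in 3 only after it. Shown 5′ to 3′ on the strand of the gene are the 130 bases that end at the start site, with matches in capitals. They are given for 4 of those genes that hold a match and for Ifi44, which has none at this spacing. The genes are Isg15 at chr4:156200819-156200948 (minus strand), Oas3 at chr5:120777660-120777789 (minus), Oas1a at chr5:120907526-120907655 (minus), Ifit1 at chr19:34640759-34640888 (plus) and Ifi44 at chr3:151749911-151750040 (minus).
Isg15: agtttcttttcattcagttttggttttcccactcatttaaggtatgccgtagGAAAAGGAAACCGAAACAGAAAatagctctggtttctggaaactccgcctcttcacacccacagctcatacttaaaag
Oas3: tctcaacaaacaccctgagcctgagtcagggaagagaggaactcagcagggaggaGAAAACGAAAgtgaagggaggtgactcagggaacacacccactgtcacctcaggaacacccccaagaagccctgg
Oas1a: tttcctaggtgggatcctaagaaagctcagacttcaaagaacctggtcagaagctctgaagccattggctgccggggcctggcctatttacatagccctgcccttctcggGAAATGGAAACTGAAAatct
Ifit1: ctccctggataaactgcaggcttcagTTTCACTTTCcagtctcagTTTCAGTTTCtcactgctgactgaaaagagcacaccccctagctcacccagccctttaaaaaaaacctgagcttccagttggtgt
Ifi44: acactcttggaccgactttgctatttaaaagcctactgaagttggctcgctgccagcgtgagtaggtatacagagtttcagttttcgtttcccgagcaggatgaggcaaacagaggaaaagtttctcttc
In Isg15 the capitals are overlapping matches whose first bases lie at -78, -72 and -66, counted from the start site. Ifit1 held matches at -104 and -85 and Oas3 held 1 at -75, whereas those of Oas1a, at -20 and -14, lay next to the start. Oasl2 and Irf7 also had no match in their windows. The bases shown for Ifi44 hold TTTC repeats at other spacings, which the search did not count. A match is a description of the letters only. Genes with a match had a median log2 difference between Pxr-/- and WT in corn oil of 1.05 (0.50 to 2.62, 14 genes) and genes without of 1.02 (0.30 to 2.53, 13 genes), with overlapping ranges.

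In corn oil, all 36 interferon-stimulated genes had a higher mean in Pxr-/- than in WT colon, against 52.9% of the 23599 genes tested. Their median log2 difference was 1.14, a 2.21-fold difference, with a range of 0.30 (Psmb8) to 2.85 (Oas2), while the median over all genes was 0.01. In 32 of the 36 the unadjusted limma p was under 0.05, against 6.17% of all genes in the same direction. None passed the call at a false discovery rate (FDR) of 0.05 and a fold change over 1.5: 0 of 38703 probes (0%) was called, and the smallest adjusted p among the 36 was 0.234. In 22 of the 36 genes every Pxr-/- CONT array lay above every WT CONT array, against 2.44% of all genes. By the exact two-sided permutation test over arrays these 22 reached the smallest p that 5 against 4 arrays allow, 0.0159, and after adjustment over all probes the smallest was 0.294. The difference was present in each wash bath of the hybridisation, with a median of 1.36 in bath 1 (2 against 2 arrays) and 1.01 in bath 2 (3 against 2 arrays), and all 36 genes were higher in each. Without Pxr-/- CONT replicate 2, one of the near-identical arrays, the median in bath 2 was 0.57.

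**Figure D1:**
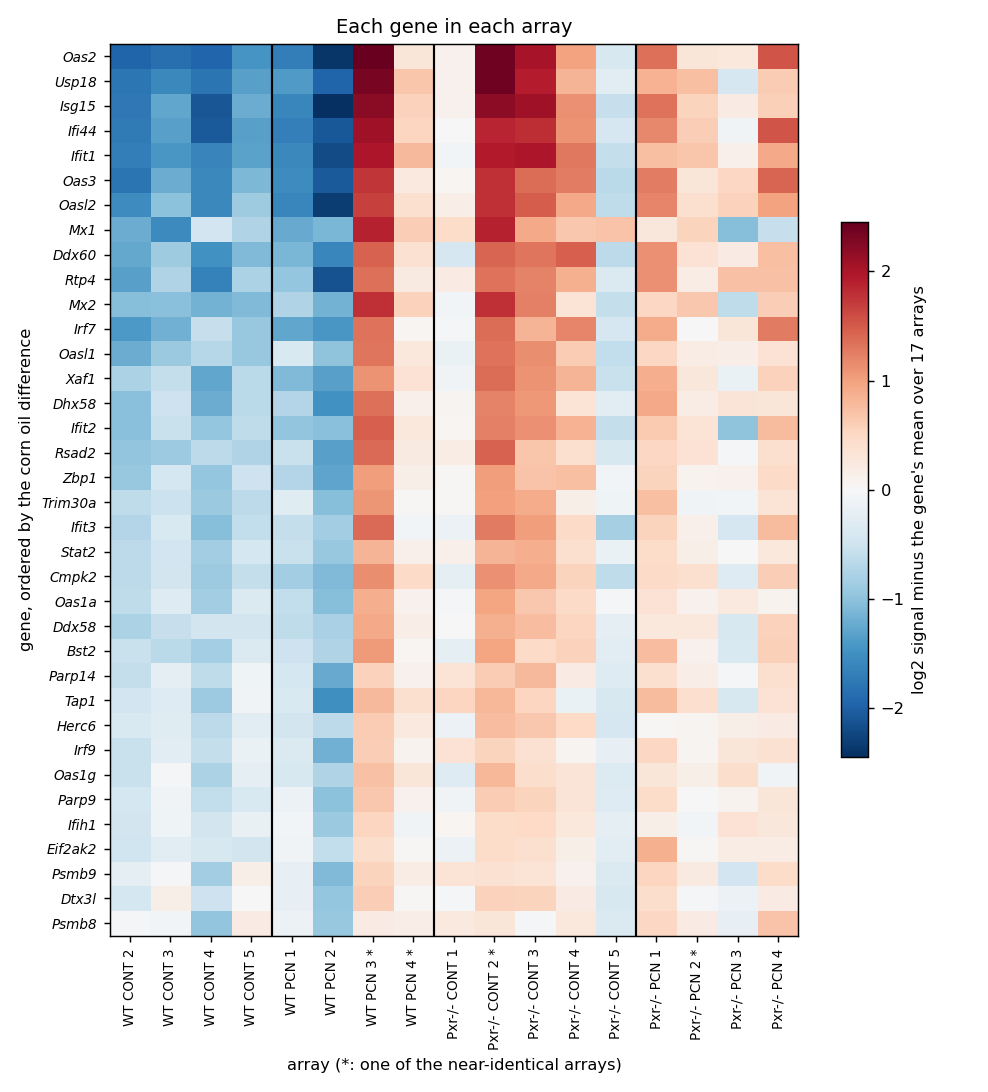
Log2 signal of the 36 interferon-stimulated genes (rows, ordered by the corn oil difference) in each of the 17 arrays (columns, by group) as the deviation from the gene's own mean, red above and blue below it. The WT CONT columns and WT PCN replicates 1 and 2 are blue for nearly every gene, while WT PCN replicates 3 and 4 (starred) are mostly red like their starred partners among the Pxr-/- arrays.

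The ISG15 system had the largest median, 2.62 over 3 genes (2.27 without the near-identical arrays). Isg15 encodes a ubiquitin-like protein that is attached to other proteins in infected cells. Its log2 signal was 11.69, 12.16, 11.35 and 12.23 in the WT CONT arrays and 13.55, 15.63, 15.51, 14.57 and 12.87 in the Pxr-/- CONT arrays. The lowest Pxr-/- array therefore lay above the highest WT array, but the Pxr-/- arrays spread over a far wider range. The difference was 2.62 ± 0.78 (SE), a 6.16-fold difference (limma adjusted p = 0.245). Usp18, the protease that removes ISG15 and also damps signalling from the receptor, was at 7.87, 8.06, 7.85 and 8.30 in WT and at 9.74, 12.01, 11.56, 10.47 and 9.38 in Pxr-/-, again without overlap. Its difference was 2.65 ± 0.74 (adjusted p = 0.234). Herc6, the ligase that attaches ISG15 in mice, differed by 0.69.

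The 2-5A synthetase family, whose enzymatically active members sense double-stranded RNA and activate RNase L, had a median difference of 1.73 over 6 genes. All 6 had an unadjusted p under 0.05. Oas2 was at 9.85, 9.95, 9.86 and 10.36 in WT CONT and at 11.92, 14.19, 13.83, 12.79 and 11.41 in Pxr-/- CONT. This was the largest difference of the set, 2.85 ± 0.81 or 7.20-fold (adjusted p = 0.241). Oas3 was at 6.53, 7.11, 6.73 and 7.22 in WT and at 8.36, 10.1, 9.68, 9.57 and 7.66 in Pxr-/-, a difference of 2.20 ± 0.67. Neither gene overlapped between the genotypes. Oasl2 and Oasl1 followed at 2.03 and 1.42, and Oas1a and Oas1g, close paralogs whose probes may share signal, at 0.96 and 0.61. Cross-hybridisation between the paralogs was not tested.

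**Figure D2:**
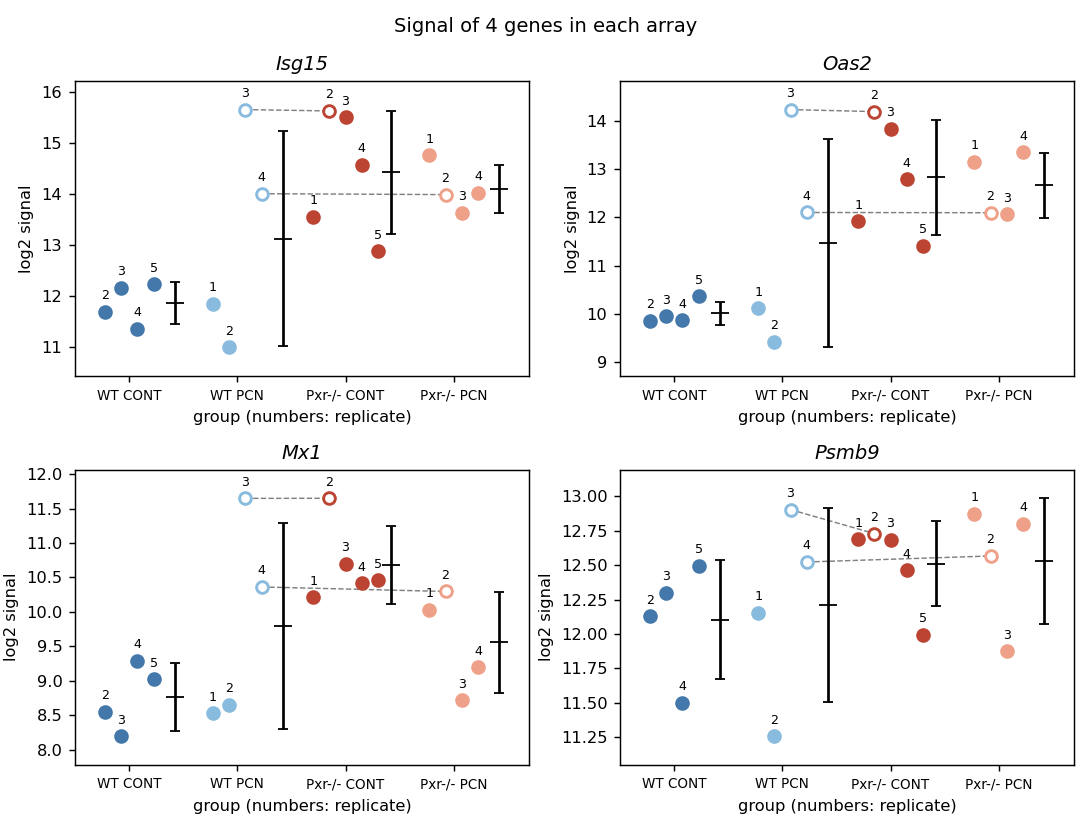
Log2 signal of Isg15, Oas2, Mx1 and Psmb9 in each array by group, with replicate numbers. Black bars give the group mean and SD (n = 4, 4, 5 and 4), open points are the near-identical arrays, and dashed lines join each pair. For Isg15, Oas2 and Mx1 all Pxr-/- CONT arrays sit above all WT CONT arrays, and for Psmb9 they overlap.

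The IFIT family binds foreign RNA and blocks its translation. Ifit1 was at 8.08, 8.35, 8.16 and 8.46 in WT CONT and at 9.70, 11.71, 11.75, 11.07 and 9.18 in Pxr-/- CONT, with no overlap and a difference of 2.48 ± 0.71 (5.58-fold, adjusted p = 0.245). Ifit2 differed by 1.34 ± 0.52, but with 7.61 in Pxr-/- CONT replicate 5 and 7.64 in WT CONT replicate 3 the groups overlapped. Ifit3 differed by 1.07 and also overlapped.

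Among the other antiviral effectors, the median difference was 1.33 over 10 genes, all with an unadjusted p under 0.05. Ifi44, an interferon-induced protein of microtubule-like aggregates, was at 6.38, 6.79, 6.07 and 6.78 in WT CONT and at 8.11, 9.99, 9.93, 9.22 and 7.70 in Pxr-/- CONT. The groups did not overlap, and the difference was 2.53 ± 0.73 (5.76-fold, adjusted p = 0.245). Mx1, a dynamin-like GTPase against orthomyxoviruses of which most inbred laboratory mice carry a defective allele, was at 8.55, 8.19, 9.29 and 9.02 in WT and at 10.21, 11.65, 10.69, 10.41 and 10.46 in Pxr-/-. Its difference of 1.92 ± 0.57 (adjusted p = 0.245) came with a narrower spread in Pxr-/- CONT (SD 0.57, n = 5) than that of Isg15 (SD 1.21, n = 5). Rtp4 (1.80), Mx2 (1.64), Xaf1 (1.39), Rsad2 (1.27), Trim30a (1.08), Cmpk2 (1.02), Bst2 (0.89) and Eif2ak2 (0.50) completed the list. Rsad2 encodes viperin, Bst2 the virion tether tetherin and Eif2ak2 the kinase PKR.

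The sensors of viral nucleic acid had a median difference of 1.21, with 5 of 5 genes at an unadjusted p under 0.05. Ddx60, a helicase that aids RIG-I signalling, was at 7.58, 7.97, 7.35 and 7.75 in WT CONT and at 8.43, 10.27, 10.15, 10.30 and 8.20 in Pxr-/- CONT, a difference of 1.85 ± 0.56. Dhx58, which encodes the regulator LGP2, differed by 1.36 ± 0.46. Zbp1, the sensor of Z-form nucleic acid, differed by 1.21, and Ddx58 and Ifih1, which encode RIG-I and MDA5, by 0.95 and 0.51. Of the transcription factors, Irf7, the factor that amplifies interferon alpha production, was at 13.48, 13.70, 14.31 and 13.94 in WT and at 14.83, 16.25, 15.71, 16.08 and 14.47 in Pxr-/-. The difference was 1.62 ± 0.52 (adjusted p = 0.268), and those of the ISGF3 subunits Stat2 and Irf9 were 1.03 ± 0.29 and 0.62.

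The smallest differences were in antigen processing and in the PARP9, PARP14 and DTX3L group. PARP9 and DTX3L form a complex that ubiquitinates histones and viral proteins, and PARP14 is an ADP-ribosyltransferase. Parp14 differed by 0.72 ± 0.30, Parp9 by 0.60 ± 0.27 and Dtx3l by 0.38, and all 3 overlapped between the genotypes. Their probes lie on chromosome 16 (mm9), 2.28 to 2.42 Mb from the Nr1i2 probe, which is the locus targeted in the Pxr-/- mice. The probes of Rtp4, at 14.6 Mb, and of Mx1 and Mx2, at 59.4 and 59.5 Mb, lie on the same chromosome. The part of this position in the differences was not tested. The immunoproteasome subunits Psmb8 and Psmb9 and the peptide transporter Tap1, whose probes lie together on chromosome 17, differed by 0.30, 0.40 ± 0.31 and 0.69 ± 0.40. None of the 3 had an unadjusted p under 0.05. Psmb9 was at 12.13, 12.30, 11.50 and 12.50 in WT CONT and at 12.69, 12.73, 12.68, 12.46 and 11.99 in Pxr-/- CONT, so the groups overlapped.

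The genes varied together among the Pxr-/- CONT arrays. Replicate 5 was the lowest of its group for 35 of the 36 genes and replicate 2 the highest for 31. The mean over the 36 genes was 9.80 to 10.21 in the WT CONT arrays and 10.47, 10.86, 11.42, 11.79 and 12.02 in the Pxr-/- CONT arrays. Without the 4 near-identical arrays, which include replicate 2, the median difference in corn oil was 0.97 and all 36 genes were still higher. Of these, 29 had an unadjusted p under 0.05 (4.32% of all genes). In that set the smallest adjusted p was 0.107, and 22 genes did not overlap between the groups (3.01% of all genes).

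**Figure D3:**
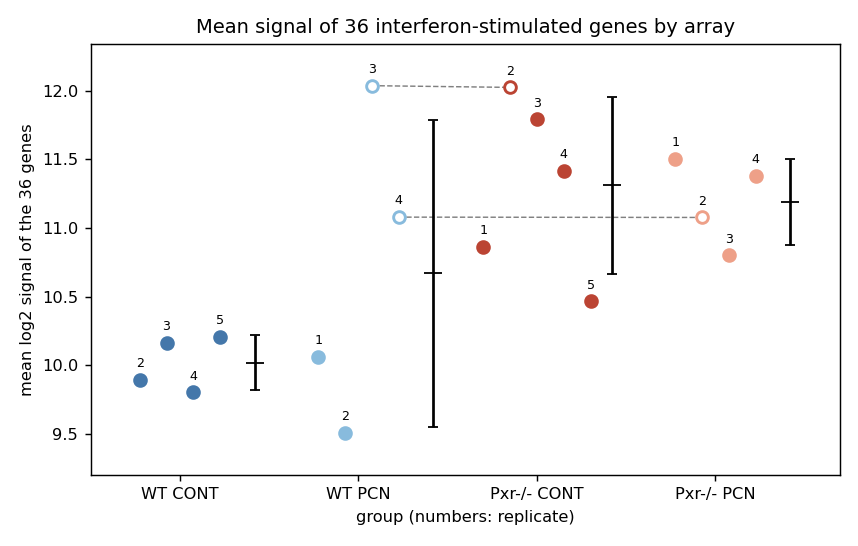
Mean log2 signal of the 36 interferon-stimulated genes in each array by group, with replicate numbers. Black bars give the group mean and SD, and dashed lines join the near-identical arrays (open points). The 4 WT CONT arrays and WT PCN replicates 1 and 2 lie at 9.51 to 10.21, below all 9 Pxr-/- arrays, whereas WT PCN replicates 3 and 4 lie at 12.04 and 11.08.

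In PCN-treated mice the genotype difference depended on the near-identical arrays. With all arrays, 35 of the 36 genes were higher in Pxr-/- PCN than in WT PCN (51.5% of all genes were), the median difference was 0.42, none had an unadjusted p under 0.05 (1.11% of all genes did, in this direction), and none of the 36 separated the groups (0.674% of all genes did). The WT PCN group was split. Isg15 was at 11.85 and 10.99 in WT PCN replicates 1 and 2 and at 15.66 and 14.01 in replicates 3 and 4, against 14.76, 13.99, 13.63 and 14.02 in Pxr-/- PCN. Oas2 was at 10.11 and 9.42 in WT PCN replicates 1 and 2, at 14.24 and 12.10 in replicates 3 and 4, and at 13.15, 12.10, 12.06 and 13.35 in Pxr-/- PCN. The array labelled WT PCN replicate 3 had the highest value of all 17 arrays for 19 of the 36 genes, and WT PCN replicate 2 the lowest for 28. Within the wash baths the median difference was 0.12 in bath 1 (2 Pxr-/- against 3 WT arrays) and 1.12 in bath 2 (2 against 1).

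Without the 4 near-identical arrays, 3 Pxr-/- PCN arrays stood against 2 WT PCN arrays. The median difference was then 1.12 (2.18-fold), all 36 genes were higher, and 32 had an unadjusted p under 0.05, against 2.72% of all genes. The median was 1.17 in bath 1, with 1 array a group, and 1.12 in bath 2. No gene was called (0% of genes in this direction), and the smallest adjusted p was 0.262. The values of 32 genes did not overlap, where 8.85% of all genes did not, and an exact permutation test of 3 against 2 arrays cannot go below 0.20. Isg15 differed by 2.78 ± 0.65, Oas2 by 3.10 ± 0.62, Irf7 by 2.17 ± 0.46 and Mx1 by 0.67 ± 0.33.

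**Figure D4:**
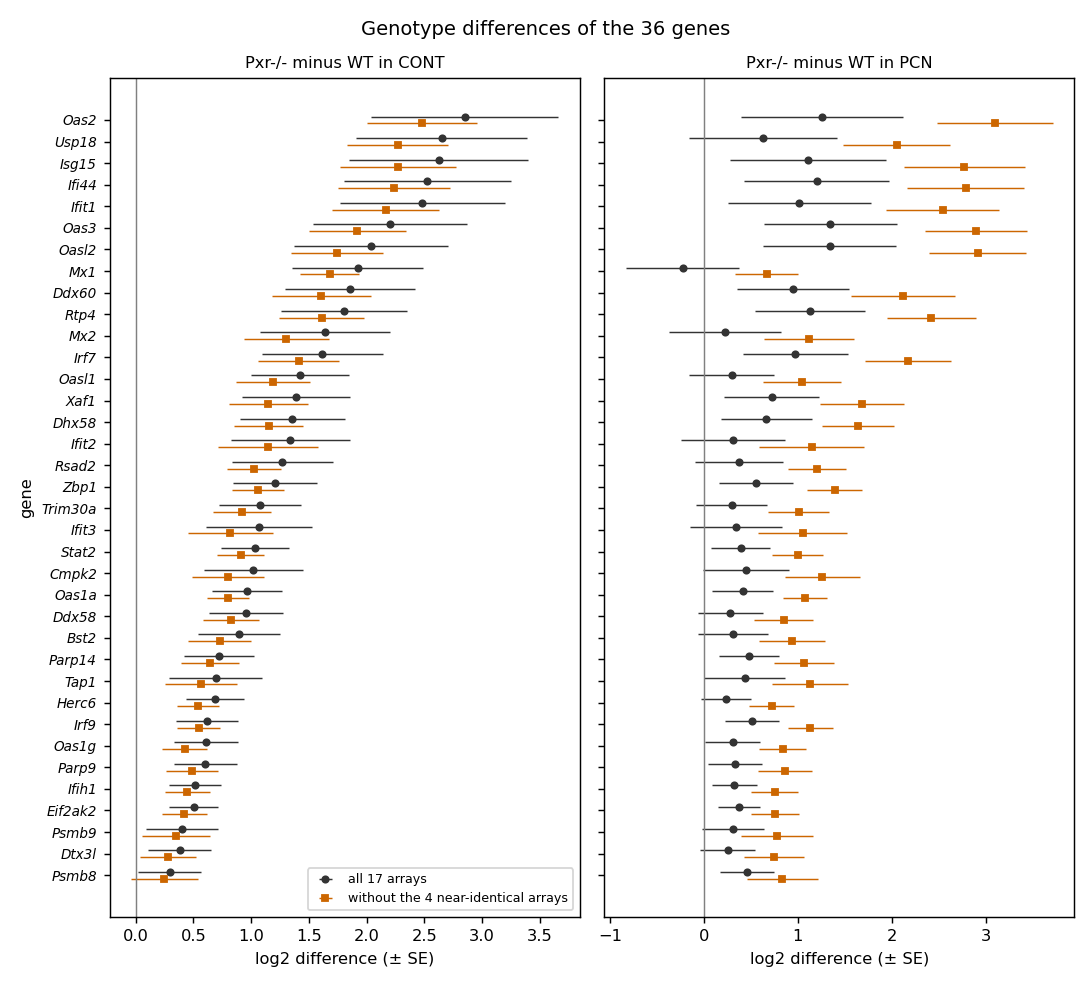
Log2 difference ± SE between Pxr-/- and WT for each of the 36 genes in corn oil (left) and PCN (right), with all 17 arrays (black circles) and without the 4 near-identical arrays (orange squares). In corn oil both sets of points lie above 0 for every gene, with medians of 1.14 and 0.97. In PCN the median goes from 0.42 to 1.12, and Mx1 goes from -0.23 to 0.67.

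The genotype difference averaged over corn oil and PCN was added after these values had been seen. With all 17 arrays, none of the 36 genes was called (0 of 38703 probes), although 30 had an unadjusted p under 0.05 (3.66% of all genes in this direction) and the median was 0.78. Without the near-identical arrays, 11 of the 36 genes were called, against 18 of all 23599 genes (0.0763%) called higher in Pxr-/-. They were Oas2 (2.79 ± 0.39), Isg15 (2.52 ± 0.41), Ifi44 (2.51 ± 0.40), Oas3 (2.41 ± 0.34), Ifit1 (2.36 ± 0.38), Oasl2 (2.33 ± 0.32), Usp18 (2.16 ± 0.36), Rtp4 (2.02 ± 0.30), Irf7 (1.79 ± 0.29), Zbp1 (1.22 ± 0.19) and Oas1a (0.94 ± 0.15), with limma adjusted p of 0.0294 to 0.0437. All 36 genes had an unadjusted p under 0.05 (5.56% of all genes). The other 7 genes called higher, named for that reason alone, were Apol9a, Apol9b, Lgals3bp, Ifi27l2b, Oas1f, Hsh2d and Slfn4. The calls were sensitive to single arrays, as leaving out any 1 of the 13 remaining arrays gave 0 to 22 called genes of the 36. The count was 0 without WT CONT replicate 2, 3 or 5, WT PCN replicate 2, Pxr-/- CONT replicate 1 or 4 or Pxr-/- PCN replicate 1 or 4, and 1 without Pxr-/- CONT replicate 3. Among all 38703 probes, in either direction, 7 to 56 were called where the count was 0, and 8 where it was 1. The count was 6 without WT CONT replicate 4 or WT PCN replicate 1, 12 without Pxr-/- CONT replicate 5 and 22 without Pxr-/- PCN replicate 3. In that order, 83, 62, 40 and 136 of all probes were called, so the total moved as well. Over all these fits the median difference of the 36 genes stayed between 0.90 and 1.23, with all 36 higher in each case. When only WT PCN replicates 3 and 4 were left out, 21 of the 36 genes were called, against 0.169% of all genes.

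In the same 13 arrays, all 7 Pxr-/- arrays lay above all 6 WT arrays for 19 of the 36 genes, against 93 of 23599 genes (0.394%). Ranked by the mean of the 36 genes, the 7 Pxr-/- arrays took ranks 1 to 7. The lowest of them, Pxr-/- CONT replicate 5 at 10.47, lay above the highest WT array, WT CONT replicate 5 at 10.21, and these 2 arrays were on the same slide. With all 17 arrays no gene of the 36 separated the genotypes (0% of all genes did).

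PCN itself was tested within each genotype, and none of the 36 genes was called in either. Among all probes, 0% were called in WT and 0.00517% in Pxr-/- mice with all arrays, and 0.0491% and 0.0517% without the near-identical arrays. In WT mice the median difference between PCN and CONT was 0.58 with all arrays, with 36 of 36 genes higher (51.6% of all genes were). It was -0.25 without the near-identical arrays, with 32 of 36 lower. Within the baths it was 0.72 in bath 1 and 0.08 in bath 2 with all arrays, and -0.54 in bath 1 without the near-identical arrays. In neither case did any of the 36 have an unadjusted p under 0.05, whereas 2.86% and 3.36% of all genes were higher, and 2.17% and 1.66% lower, at that threshold. In Pxr-/- mice the median was -0.10 with all arrays and 0.12 without these 4, and it had opposite signs in the wash baths, -0.64 in bath 1 and 0.29 in bath 2 with all arrays. Mx1 stood apart from that median. In Pxr-/- mice it was at 10.03, 10.30, 8.71 and 9.19 after PCN and at 10.21 to 11.65 in corn oil, a difference of -1.13 that became -1.19 without the near-identical arrays (unadjusted p = 0.00153, adjusted p = 0.357). With all arrays none of the 36 genes was lower after PCN at an unadjusted p under 0.05 (4.46% of all genes were), and without these 4 only Mx1 was (4.32%). The genotype difference in PCN minus that in corn oil had a median of -0.67 with all arrays and 0.40 without the near-identical arrays. Only Mx1 had an unadjusted p under 0.05 in this test, with the lower value in PCN (3.36% of all genes with all arrays, 2.03% without the 4).

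The lists of genes upstream of the set had medians near 0 in the same corn oil arrays. Of 19 interferon ligands listed, 9 could be tested, none with an unadjusted p under 0.05, and the median difference was 0.07. Ifnb1, the beta interferon, was well above background on 1 array only, and the largest differences were those of Ifng, 0.67 ± 0.35, and Ifna9, -0.52 ± 0.28. Of the 6 receptor genes 2 were higher and 4 lower, with a median of -0.08. The chains of the interferon gamma receptor had the largest differences, Ifngr2 with -0.32 ± 0.11 (unadjusted p = 0.0103, adjusted p = 0.284) and Ifngr1 with -0.21 ± 0.12, and those of the type I receptor were near 0, with Ifnar1 at -0.09 ± 0.08 and Ifnar2 at -0.07 ± 0.09. Of 15 genes of upstream sensing and induction, 4 were higher and 11 lower, with a median of -0.06. The largest differences were those of Irf5, -0.48 ± 0.20 (unadjusted p = 0.0317), and of the RNA sensor Tlr3, 0.42 ± 0.24, and Mb21d1, which encodes the DNA sensor cGAS, differed by 0.35 ± 0.14 (unadjusted p = 0.0263). Without the near-identical arrays none of these 15 genes had an unadjusted p under 0.05. Tyk2, which encodes a kinase of the receptor, differed by -0.31 ± 0.09. Among 7 inhibitors of the pathway, 1 was higher and 6 lower, with a median of -0.07. The feedback inhibitors Socs1 and Socs3 differed by 0.65 ± 0.24 (unadjusted p = 0.0167) and -0.57 ± 0.30, and the phosphatase gene Ptpn6 by -0.33 ± 0.10 (unadjusted p = 0.00641). No gene of these lists was called.

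**Figure D5:**
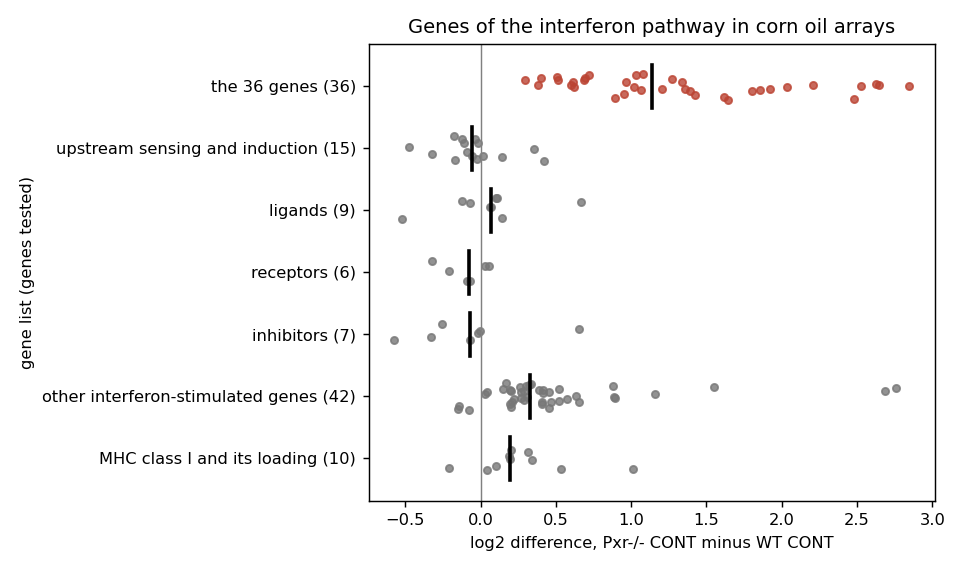
Log2 difference between Pxr-/- CONT and WT CONT for each tested gene (points) of the 36-gene set and of 6 other lists of the interferon pathway, with the list's median as a black bar and all arrays included. The medians of the ligand, receptor, upstream and inhibitor lists lie between -0.08 and 0.07, and those of the other interferon-stimulated genes and of MHC class I at 0.33 and 0.20.

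Outside the set, 39 of 42 other interferon-stimulated genes were higher in Pxr-/- CONT, 16 of them with an unadjusted p under 0.05, and the median was 0.33. Of all genes, 52.9% were higher, and 6.17% were higher at that threshold. Without the near-identical arrays 39 of the 42 were higher, 11 of them at that threshold (4.32% of all genes), with a median of 0.29. Apol9b and Apol9a, apolipoprotein L genes induced by interferon, differed by 2.76 ± 0.80 and 2.68 ± 0.79, as much as the leading genes of the set. Lgals3bp, a secreted glycoprotein, differed by 1.16 ± 0.37. For MHC class I and its loading, 9 of 10 genes were higher with a median of 0.20, among them Nlrc5, the transactivator of these genes, by 1.01 ± 0.44, and B2m, the light chain, by 0.54 ± 0.31. No gene of either list was called.

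Markers of other cells were read beside these values. The mean of 5 plasmacytoid dendritic cell markers, cells known for making interferon alpha, was 10.52 to 10.86 in WT CONT and 10.54 to 10.78 in Pxr-/- CONT, and that of 6 T cell markers was 7.84 to 8.51 and 8.17 to 8.57. Neutrophil markers (5 genes) were lower in Pxr-/- CONT, at 9.37 to 9.77 against 9.89 to 10.67 in WT CONT, without overlap. B cell markers (4 genes) were at 7.31 to 9.55 in Pxr-/- CONT against 8.12 to 10.77. The 5 goblet cell markers were at 17.86 to 18.01 in Pxr-/- CONT against 17.55 to 17.85, without overlap. The 7 macrophage and monocyte markers were at 11.81 to 12.09 against 11.83 to 12.47, with a median difference of -0.21 and 2 of 7 lower at an unadjusted p under 0.05 (C1qa and C1qb). Of all genes, 5.60% were lower at that threshold. In the averaged genotype difference without the near-identical arrays, 4 of these 7 macrophage and monocyte markers were lower at that threshold (median -0.31), as were 5 of 7 liver markers (median -2.21) and 2 of 5 neutrophil markers (median -0.52). There, 6.07% of all genes were lower at it. Going the other way, 2 of 6 T cell markers (median 0.45) and 1 of 5 goblet cell markers (median 0.02) were higher at it. Of all genes, 5.56% were. In corn oil the liver markers were at 7.04 to 7.62 against 7.63 to 12.02, and the pancreas markers at 7.76 to 15.72 against 7.93 to 17.71. The part of these cells in the difference was not tested. Without the arrays highest in pancreas markers (WT CONT replicate 4, WT PCN replicates 1 and 3, Pxr-/- CONT replicate 2) the median of the 36 genes in corn oil was 0.93, and without those highest in liver markers (WT CONT replicate 5, WT PCN replicates 1 and 2) it was 1.18. The other probes of the 36 genes pointed the same way, as all 24 that could be tested were higher in Pxr-/- CONT, but the size varied with the probe. The other Oas2 probe, well above background on 6 arrays, differed by 0.82 against 2.85 for the chosen probe. For Xaf1 a second probe gave 0.41 against 1.39, and for Dtx3l 0.08 against 0.38. Some were larger than the chosen probe, as for Parp14 (0.84 against 0.72) and Ddx60 (1.90 against 1.85).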

How the data were processed

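The authors hybridised colon RNA to Agilent whole-genome mouse arrays, 1 array for each labelled replicate, and deposited the scanner files (Agilent Feature Extraction 10.10.1.1) with spot intensity values and flags, and a table of normalized log2 values. Whether each array stands for a different mouse is in doubt for the near-identical pairs. The paper that gives the methods reports liver arrays of this experiment. Those methods name a normalization with a correction for the wash bath, for which quantile normalization and a wash bath term stand in here.

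From the deposited median intensity, log2 values of all 17 arrays were quantile normalized, spots of a probe were averaged, and flagged outlier spots were left out. Probes well above background on at least 4 arrays were tested (38703). The fit was limma 3.58.1 in R 4.3.3 with the 4 groups and the wash bath, adjusted by Benjamini-Hochberg over all probes. Genes are called where the adjusted p is 0.05 or less and the groups differ by more than 1.5-fold. A gene was counted once, by 1 probe (23599 genes). Between 62.7% and 71.0% of probes were well above background per array. Array number, not read depth, limits the precision. Exact permutation tests were two-sided. Differences are Pxr-/- minus WT, or PCN minus CONT, and a log2 signal compares arrays for 1 probe only.

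A difference with its SE is given for the pair of genes with the largest corn oil difference in each of 8 role lists, and for called genes. Within a role list the other genes are given by their difference. Of each other list, called genes or else the pair with the largest differences are given in the same way as the pairs. A few further genes are named for their role, and values of single arrays are given for part of the genes only. A gene of the other lists is not reported here. The genes, lists and role groups were chosen with earlier results of these data known. Alternatives were the authors' log2 values, other background corrections and scalings, filters, slide and replicate blocks, and arrays left out. The script was tested on simulated data. Promoters came from RefSeq (GRCm38.p6), and probe positions (mm9) from the scanner files.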

Additional observations from a re-analysis of the deposited data

Results flagged for a closer look

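The genotype difference of Mx1 in PCN minus that in corn oil was -2.15 on the log2 scale with all 17 arrays, which drew attention because its unadjusted limma p was 0.0198, the only 1 of the 36 genes under 0.05. The adjusted p was 0.848. Of all genes, 3.36% had an unadjusted p under 0.05 in this direction, so 1 gene of 36 is near the share of all genes. Without the 4 near-identical arrays the value was -1.01 (unadjusted p = 0.0363). No array stood far from the others of its group by Dixon's test in any of the 68 combinations tested, of which chance gives about 1 in 20. These combinations cover the genes followed singly and the mean of the 36 genes, in each group. The test sets the most extreme array against its nearest neighbour, so it can miss a split into pairs such as that of WT PCN.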

How the results depend on the processing

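The median corn oil difference of the 36 genes was 0.90 to 1.19 under the 16 alternatives other than leaving out 1 array, and 0.97 to 1.33 when each of the 17 arrays was left out. No gene was called in any of them. With the main setting 32 had an unadjusted p under 0.05, and without the 4 near-identical arrays 29 did. Among 16 genes followed singly through the alternatives, 1 of 528 values in corn oil turned its sign, Psmb9 at -0.07 with the slide as a fixed block. In PCN the median genotype difference, 0.42 with all arrays, was 1.12 without the 4 near-identical arrays and 1.13 without WT PCN replicates 3 and 4 alone, a setting chosen after seeing the data that also took Mx1 from -0.23 to 0.97. It was -0.23 without the arrays highest in liver markers, which left only replicates 3 and 4 in WT PCN. Leaving out 1 array gave 0.11 (WT PCN replicate 2) to 0.76 (WT PCN replicate 3). The PCN difference in WT was -0.25 without the 4 arrays, -0.25 without WT PCN replicates 3 and 4 alone, 1.37 without the liver arrays, and 0.15 (without WT PCN replicate 3) to 0.87 (without WT PCN replicate 2) when 1 array was left out. In Pxr-/- mice it was -0.32 to 0.08 when 1 array was left out. The genotype difference in PCN minus that in corn oil was 0.40, 0.15 and -1.50 in those 3 settings, and -1.02 to -0.24 when 1 array was left out, with 1 gene at an unadjusted p under 0.05. The direction of these 4 medians thus changed with the arrays used, and the cause was not tested. For the averaged genotype difference, 11 genes were called without the 4 arrays, 21 without WT PCN replicates 3 and 4 alone, 0 to 22 when 1 more array was left out after the 4, and 0 in every other setting, with 30 at an unadjusted p under 0.05. Its median was 0.60 to 0.98 when 1 of the 17 arrays was left out. None of these single-gene values was called, and they took the opposite sign in 21 of 528 cases for the genotype difference in PCN, 42 of 528 for PCN in WT, 63 of 528 for PCN in Pxr-/- and 40 of 512 for the difference between the genotype differences. A fit of the compared groups alone has no counterpart for the last of these or for the averaged difference. Whether the replicate numbers pair the arrays cannot be decided here, as differently numbered pairs were not set beside the same-numbered ones. Of 22 same-numbered pairs, 11 had deviations correlated above 0.1 (r -0.33 to 0.49), and 6 arrays correlated best with an array of their own number. With the replicate block 0 genes were called in each comparison, and the corn oil median was 1.18. All 36 genes were well above background on all 17 arrays, so the number of arrays limits the precision.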
